A study of Homo sapiens with 8 samples.

Results

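Accessible regions in gene deserts were the merged ATAC-seq regions on chromosomes 1 to 22 that lay more than 500 kb from the nearest protein-coding gene body and held a peak in at least 4 of 8 peak lists. Of 583075 merged regions, 22733 lay beyond 500 kb, and 4837 of these met both conditions and are called desert regions here. They were chosen by their distance and by the number of lists that called them, so both are given as descriptions. ATAC-seq uses the transposase Tn5 to insert adapters into accessible DNA. All 8 libraries came from mitotic hTERT RPE-1 cells, a telomerase-immortalised human retinal pigment epithelial line, which lacked endogenous Plk1 (Plk1-/-) and carried EGFP-Plk1as, an analog-sensitive form of the kinase. Prometaphase arrest lasted 16 h in 5 µM STLC, an inhibitor of the mitotic kinesin Eg5, after which mitotic cells were shaken off and stayed in STLC for a further 2 h with 0.5% DMSO (4 libraries) or with 10 µM 3MB-PP1, which inhibits Plk1as (4 libraries). The mitotic index was above 95%, and 50000 cells went into each transposition. All groups share the engineered genotype and the arrest, and no cells with unmodified Plk1 or without STLC were compared.

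Gene deserts are long stretches of the genome without protein-coding genes. Many flank genes for developmental transcription factors or neuronal adhesion molecules, and some hold enhancers that act on such genes over long distances. Desert chromatin is mostly compact and replicates late, and its DNA is generally poor in G and C. On mitotic chromosomes most transcription stops, while a share of promoters and enhancers stays accessible to the transposase. Plk1 is a kinase that acts at centrosomes, kinetochores and the spindle in mitosis. The comparison asks what loss of its activity does to the accessibility of mitotic chromosomes, here in the sequence farthest from genes.

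Long non-coding RNA (lncRNA) genes start inside many deserts, and their promoters differed in base composition between those that lay in a desert region and those that did not. Promoter windows, from 250 bases before to 50 after a start, came from RefSeq on GRCh38.p14. In the 5 sequences printed here, 5′ to 3′ on the strand of the gene, capitals mark CpG dinucleotides, the sites of DNA methylation that crowd at CpG islands. MIR4458HG (chr5:8457437-8457736, plus strand) lay in the desert region of highest rank. LOC105378477 (chr10:108466348-108466647, minus strand) and LINC01435 (chr10:108069244-108069543, minus strand) start in the desert between SORCS1 and XPNPEP1, the first in a desert region and the second in none. SNHG27 (chr4:131764588-131764887, plus strand) lay in a region called in 4 of 4 3MB-PP1 and 2 of 4 DMSO lists. LOC124903227 (chr13:86311436-86311735, minus strand) shows a window without a CpG that lay in a region of all 8 lists.
MIR4458HG: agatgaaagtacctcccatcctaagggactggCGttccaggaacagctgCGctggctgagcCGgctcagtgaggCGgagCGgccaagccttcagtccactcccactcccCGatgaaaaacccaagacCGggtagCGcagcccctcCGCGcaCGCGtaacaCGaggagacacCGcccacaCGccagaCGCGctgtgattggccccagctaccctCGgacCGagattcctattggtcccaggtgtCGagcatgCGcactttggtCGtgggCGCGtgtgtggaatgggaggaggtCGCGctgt
LOC105378477: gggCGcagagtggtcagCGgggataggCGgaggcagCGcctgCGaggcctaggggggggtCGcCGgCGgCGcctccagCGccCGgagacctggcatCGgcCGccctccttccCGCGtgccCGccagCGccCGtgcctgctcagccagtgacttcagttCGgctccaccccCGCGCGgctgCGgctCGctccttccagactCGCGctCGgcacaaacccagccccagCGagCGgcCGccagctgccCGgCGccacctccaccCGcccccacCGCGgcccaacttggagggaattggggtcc
SNHG27: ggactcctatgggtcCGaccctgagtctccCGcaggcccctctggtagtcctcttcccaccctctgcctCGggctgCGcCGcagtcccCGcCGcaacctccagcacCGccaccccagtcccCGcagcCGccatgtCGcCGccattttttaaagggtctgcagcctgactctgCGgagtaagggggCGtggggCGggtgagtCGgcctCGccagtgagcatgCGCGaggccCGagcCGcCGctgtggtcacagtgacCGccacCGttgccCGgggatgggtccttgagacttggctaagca
LOC124903227: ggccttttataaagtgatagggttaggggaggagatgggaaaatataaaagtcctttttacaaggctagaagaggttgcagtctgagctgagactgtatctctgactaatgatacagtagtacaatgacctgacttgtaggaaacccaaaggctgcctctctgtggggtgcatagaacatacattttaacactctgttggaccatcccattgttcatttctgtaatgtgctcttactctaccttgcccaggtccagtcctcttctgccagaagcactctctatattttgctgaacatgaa
LINC01435: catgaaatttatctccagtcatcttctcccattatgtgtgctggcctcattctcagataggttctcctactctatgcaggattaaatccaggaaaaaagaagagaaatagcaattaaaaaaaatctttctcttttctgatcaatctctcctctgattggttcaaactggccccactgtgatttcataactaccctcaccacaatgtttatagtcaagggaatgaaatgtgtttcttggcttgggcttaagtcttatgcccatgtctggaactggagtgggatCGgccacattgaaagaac

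These windows held 26, 35, 25, 0 and 1 CpG, in the order printed. Across deserts, 641 promoter windows of 569 genes were examined, and 49 of them (7.64%), from 41 genes, overlapped a desert region. Of the 68 windows with at least 10 CpG, 25 (36.8%) overlapped one, against 24 of the 573 windows (4.19%) with fewer. Many of those 25 lay within 5 Mb of a centromere, where read placement is uncertain, but few of those 24 did. Among them were windows of LINC00662, LOC105379418, FAM230C and LOC105371204 near centromeres. Windows of LOC124903400 and LINC00226 lay in the immunoglobulin heavy-chain locus. The split without such windows was not computed. The median window held 10 CpG inside desert regions, 2 CpG in other desert windows, and 5 CpG in lncRNA promoter windows within 500 kb of a protein-coding gene. Nearer to genes the split had the same direction at higher shares. Of lncRNA promoter windows that lay outside protein-coding genes but within 500 kb of one, 62.1% of those with at least 10 CpG and 19.4% of those with fewer overlapped a region called in at least 4 lists. Windows of 1 gene, and of genes that share a start region such as MIR4458HG and LINC02226, are not independent, so no test is given.

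Few windows held the short motifs searched. The AP-1 motif TGANTCA, searched on both strands, was in 8.16% of the 49 windows inside desert regions, in 13.5% of the 592 outside and in 7.67% of all 33725 promoter windows on chromosomes 1 to 22. The CTCF core motif was in 4.08%, 0.845% and 2.43%, and the TEAD motif CATTCC in 12.2%, 17.4% and 14.04%. These shares rest on 4, 2 and 6 windows inside desert regions, and no test is given.

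One microRNA gene lay in a desert region. MIR622 on chromosome 13 starts in a region called in 3 of 4 DMSO and 4 of 4 3MB-PP1 lists, with a mean within-list percentile of 68.1. Its mature product is at chr13:90231242-90231262 on the plus strand in RefSeq, with the seed (bases 2 to 8) in capitals.
hsa-miR-622: aCAGUCUGcugagguuggagc

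Accessibility thinned out steadily with distance from genes. The lists held regions of at least 4 lists at 62.6 per Mb within 50 kb of a protein-coding gene, at 32.5 per Mb between 250 and 500 kb, at 22.6 per Mb between 500 kb and 1 Mb, and at 18.6 per Mb beyond 1 Mb. Stretches of over 1 Mb without a peak in any list, which include assembly gaps, were left out of the lengths. Over the whole desert sequence the density was 21.5 per Mb of 225.5 Mb, or 14.9 per Mb when those stretches were counted. Counted so, it was 20.8 per Mb between 500 kb and 1 Mb and 7.78 per Mb beyond 1 Mb. Beyond 1 Mb, leaving them out kept 61.9 Mb of 148.0 Mb, so the fall there depends on this choice. The regions that remain were small and scattered. Their median width was 884 bp (135 to 4594 bp), their median distance to a gene 727 kb (up to 4.81 Mb), and 1151 (23.8%) lay beyond 1 Mb.

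**Figure D1:**
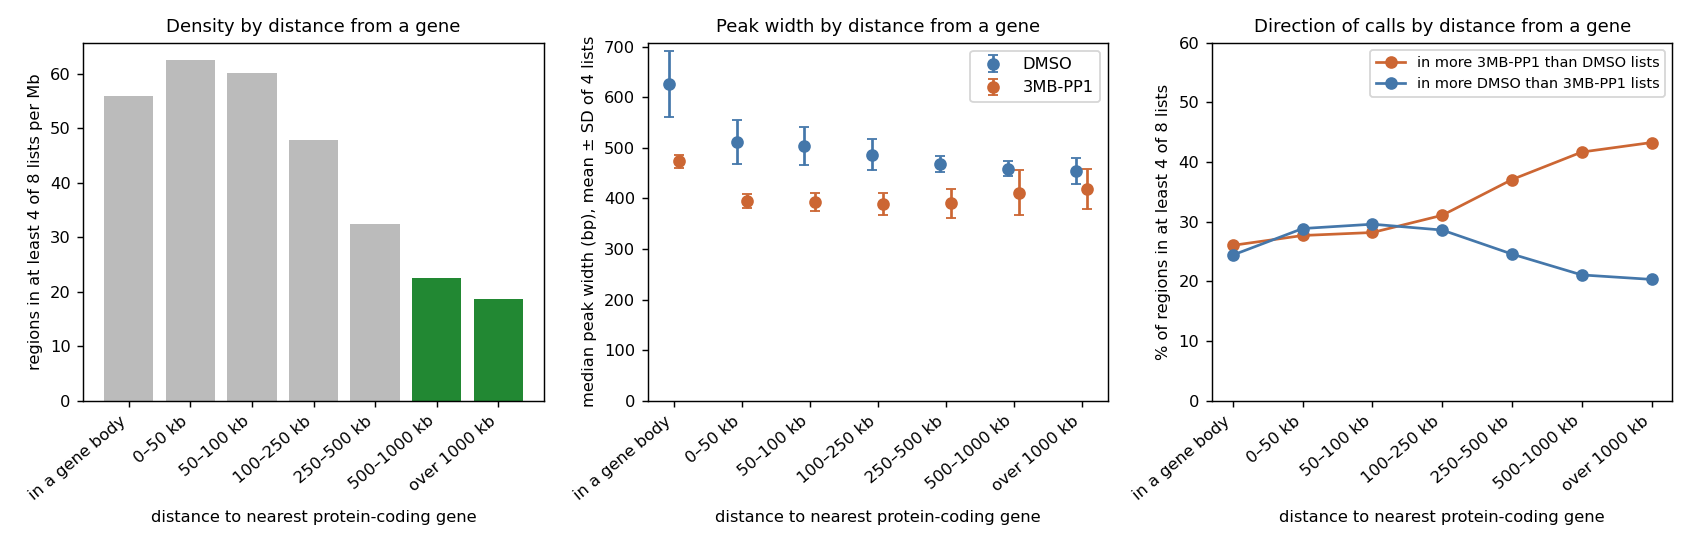
Left, regions in at least 4 of 8 lists per Mb against distance to the nearest protein-coding gene body, with the 2 desert classes in green. Peak-free stretches of over 1 Mb are left out of the lengths. Middle, median peak width per list in bp (mean ± SD of 4 lists per group). Right, percent of regions in more lists of one group than of the other. Density fell from 62.6 to 18.6 per Mb from the nearest to the farthest intergenic class, the widths of the groups drew together, and the share in more 3MB-PP1 lists reached 43.3% beyond 1 Mb at the deposited threshold. The shares by distance are for the deposited threshold only.

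Recurrence across lists was close to that of the nearest distance class. Of the 22733 merged regions beyond 500 kb, 12608 were in 1 list only, and 21.3% reached 4 lists, against 20.9% of those at 250 to 500 kb and 24.2% of all regions nearer to genes. Of the 4837 desert regions, 814 (16.8%) were in all 8 lists, where the share over all 140435 regions in at least 4 lists (the background) was 25.8% and the share at 250 to 500 kb was 16.5%. Regions in more lists ranked higher. The rank is a within-list percentile of a peak's −log10 p among all peaks of its list on chromosomes 1 to 22. The median of the mean percentile was 47.8 for desert regions in 4 lists and 72.6 for those in 8, and their median widths were 653 and 1415 bp. These are descriptions, because a merged region spans the peaks of all its lists and so widens as lists are added. The significance that sets the rank also bears on whether a list calls a peak. Desert regions were more isolated than regions nearer to genes. Another region of at least 4 lists lay within 10 kb of 54.0% of desert regions, against 79.5% of intergenic comparison regions. The latter are the 67871 regions in at least 4 lists that overlap no protein-coding gene and lie at most 500 kb from one. For those at 100 to 500 kb the share was 71.1%.

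Some stretches counted as deserts are not gene-free chromatin in the usual sense. The immunoglobulin loci hold variable segments, which the gene table does not class as protein-coding, and 120 desert regions lay there, 105 in the heavy-chain locus on chromosome 14 and 15 in the kappa locus on chromosome 2. Of all desert regions, 398 (8.23%) lay within 5 Mb of a centromere, where repeated sequence makes read placement uncertain, against 6.09% of intergenic comparison regions. This count does not exclude the immunoglobulin regions. Of all desert regions, 3418 (70.7%) overlapped no gene of the table, 1199 (24.8%) a lncRNA gene and 140 (2.89%) a pseudogene. The matching shares of intergenic comparison regions were 69.9%, 25.1% and 4.89%.

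The region of highest rank was the shared CpG-rich start of MIR4458HG and LINC02226, divergent lncRNA genes between MTRR, an enzyme of methionine synthesis, and the semaphorin gene SEMA5A (chr5:8456911-8458295, 556 kb from MTRR). Its percentiles were 99.83, 99.87, 99.93 and 99.90 in DMSO replicates 1 to 4 and 99.95, 99.94, 99.94 and 99.93 in the 3MB-PP1 replicates. It thus ranked with the strongest peaks of every list, and the highest DMSO and the lowest 3MB-PP1 percentile were the same at this precision. Next to a developmental gene, chr5:93077526-93079416 lay 504 kb from NR2F1, a nuclear receptor of neural development, with a mean percentile of 99.1 ± 0.591 (SD over 8 lists). Its width was 1879, 1607, 931 and 817 bp with DMSO and 889, 778, 778 and 763 bp with 3MB-PP1, values that overlap between the groups.

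The other regions among the 8 of highest rank in all lists were mixed. One lay at the lncRNA gene LOC105373893 between SLC4A3 and the ephrin receptor gene EPHA4 (chr2:220228226-220229491, 98.8 ± 0.443), and one at LOC105369892 near ATP2B1, a plasma membrane calcium pump (chr12:90253108-90254417, 98.6 ± 0.720). Another, chr4:131749956-131750889, lay at LOC124900859, 1.40 Mb from PCDH10, a protocadherin, and close to the SNHG27 start printed above. It had a mean percentile of 98.5 ± 1.73, and percentiles of 94.8, 98.4, 97.2 and 99.3 with DMSO against 99.1, 99.8, 99.7 and 99.8 with 3MB-PP1, where the lowest 3MB-PP1 value fell below the highest DMSO value. The remaining 3 were less secure. Those on chromosome 21 (chr21:8419938-8420787, CDC27P10) and chromosome 13 (chr13:18211768-18212548, FAM230C) lay near centromeres, and chr14:106882878-106883697 lay at the end of the heavy-chain locus. Such strong regions were few, since 55 desert regions (1.14%) had a mean percentile over 95, against 1.93% of intergenic comparison regions.

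The widest desert regions are given for the spread of peak width. The widest, chr5:125408513-125413106, spanned 4594 bp between ZNF608 and GRAMD2B. Its widest peak measured 4472, 3165, 3797 and 2049 bp with DMSO and 1998, 1647, 2969 and 2125 bp with 3MB-PP1, so the groups overlapped. At chr16:59631384-59635879, between GOT2 and the cadherin gene CDH8, the values were 3756, 4093, 2083 and 925 bp with DMSO and 821, 879, 1503 and 1093 bp with 3MB-PP1. Again 1 DMSO value lay within the 3MB-PP1 range. The third, chr8:137146198-137150638 between KHDRBS3 and FAM135B, spanned 4441 bp. Its widest peak measured 2449, 2897, 2536 and 2426 bp with DMSO and 833, 675, 397 and 571 bp with 3MB-PP1, which do not overlap. At the other end of the rule, the regions just inside the distance threshold lay 500003 bp from ZFP42 and 500123 bp from SI, and one just outside lay 499725 bp from CCDC85A. The 3 desert regions farthest from a gene were on the short arm of chromosome 22, up to 4.81 Mb from OR11H1, and all lay within 5 Mb of the centromere.

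Desert regions were spread very unevenly over the deserts. The 302 stretches lying beyond 500 kb of every protein-coding gene summed to 325.7 Mb, 273 of them held a desert region and 29 held none. The 18 deserts with at least 50 held 1382 (28.6%). The median of those with any was 11. Between SORCS1, a sorting receptor of neurons, and XPNPEP1, a cytosolic aminopeptidase, lay 174 desert regions within 1.68 Mb, more than in any other desert. They were called 112, 139, 142 and 131 times with DMSO and 116, 134, 146 and 129 times with 3MB-PP1, which overlap throughout. These regions were numerous rather than strong, with a median percentile of 57.7 and 2 regions over 95, one of them the LOC105378477 promoter.

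**Figure D2:**
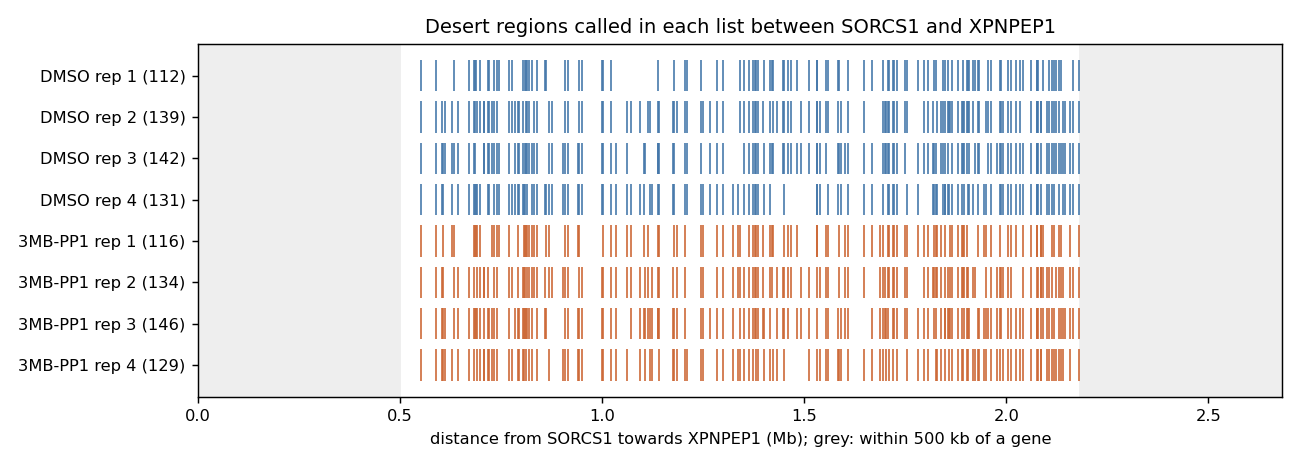
Positions of the 174 desert regions between SORCS1 and XPNPEP1 in each of the 8 lists, as distance from SORCS1 in Mb, with 1 line for each region called and the number called in brackets. From 112 regions (DMSO replicate 1) to 146 (3MB-PP1 replicate 3) were called, and 37 were in all 8 lists. That each region recurs in at least 4 lists is set by the rule.

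The next deserts by number were AGA to TENM3 on chromosome 4 (141), next to the teneurin adhesion gene TENM3, the start of chromosome 22 to OR11H1 (109, all near the centromere), TMEM121 to the end of chromosome 14 (106, of which 105 in the heavy-chain locus) and LINGO2 to ACO1 on chromosome 9 (85). By density the order changed. MKI67 to MGMT, between the gene of the proliferation antigen Ki-67 and a DNA repair gene, held 55 regions at 161 per Mb. SORCS3 to SORCS1 held 43 at 139 per Mb, and LOC101927345 to TPTE, near a centromere, held 20 at 138 per Mb. Of these, MKI67 to MGMT and both deserts at SORCS1 lie on the long arm of chromosome 10. Leaving out peak-free stretches of over 1 Mb, that arm held 68.9 desert regions per Mb of desert, against 17.4 per Mb on its short arm. The intergenic comparison regions followed the same order, at 107 and 60.3 per Mb. RPE-1 is known to carry extra copies of a part of 10q, and a part of copy number in these densities was not tested. On chromosome 12 the densities were 102 per Mb on the short and 57.6 per Mb on the long arm, while 5q had 11.3 and 17p 5.59 per Mb. Intergenic comparison regions stood at 124, 91.1, 34.3 and 68.6 per Mb on 12p, 12q, 5q and 17p. The value of 12p rests on 0.589 Mb of desert, and that of 17p on 3 regions in 0.537 Mb.

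**Figure D3:**
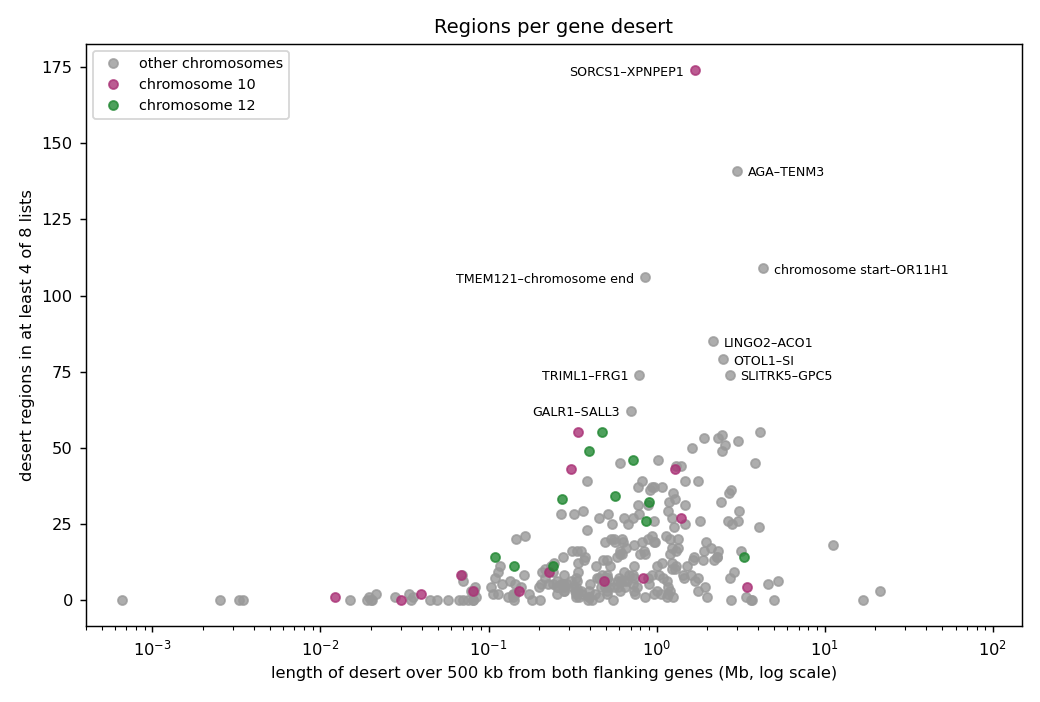
Number of desert regions against the length of each desert beyond 500 kb from its flanking genes (Mb, log scale), 1 point for each of 302 deserts, with chromosomes 10 and 12 in colour. SORCS1 to XPNPEP1 stands highest with 174, and long deserts with few or no regions lie at the lower right.

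The genes that flank the deserts were grouped in a pair of lists. Of the desert regions, 239 (4.94%) had a developmental transcription factor gene nearest, from 24 genes, against 5.05% of all merged regions beyond 500 kb and 2.46% of intergenic comparison regions. The leading genes were SALL3 with 35 regions, ID2 with 32, LMO3 with 24, TBX3 with 18 and NR2F2 with 16. SALL3 is a zinc-finger factor, ID2 an inhibitor of basic helix-loop-helix factors, LMO3 a LIM-domain cofactor, TBX3 a T-box repressor and NR2F2 a nuclear receptor. Deserts beside such genes held 26.2 desert regions per Mb, with peak-free stretches counted in the length.

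Cell adhesion and axon guidance genes were nearest to 620 desert regions (12.8%), from 45 genes. The share was 13.5% for all merged regions beyond 500 kb and 1.72% for intergenic comparison regions. TENM3 led with 60, followed by the synaptic adhesion gene SLITRK1 with 52, CDH8 with 43, SLITRK6 with 38, SLITRK5 with 33, and the protocadherins PCDH18 and PCDH9 with 31 each. These deserts took 22.1% of all desert length and held 16.3 desert regions per Mb on the same measure. For neither list was the share among desert regions higher than among all merged regions in deserts.

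Comparing the treatments, the share of each list that fell in deserts was the first measure, since it uses every peak and not only desert regions. With DMSO, 2.74%, 3.36%, 3.21% and 3.58% of peaks on chromosomes 1 to 22 lay beyond 500 kb from a gene, and with 3MB-PP1 3.33%, 4.02%, 3.89% and 3.99%. The 3MB-PP1 list was the higher in each same-numbered pair, while replicate 1 of 3MB-PP1 lay below 2 DMSO values. The means were 3.22 ± 0.354% and 3.81 ± 0.321% (SD, n = 4 each). The difference of 0.586 points did not pass the test (p = 0.0857 by exact two-sided permutation of the 70 possible assignments, adjusted p = 0.2 by Benjamini-Hochberg for 7 measures). The smallest p this design allows is 0.0286.

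Libraries with odd and even replicate numbers stand apart in these data irrespective of treatment. Chromosome X took 0.868% to 0.933% of peaks in replicates 1 and 3 and 0.595% to 0.694% in replicates 2 and 4, and the labels give no reason. The difference in desert share was 0.638 points in odd and 0.535 points in even replicates, with no overlap of the treatments in either. Reassigning treatment only among libraries of the same parity gave an exact two-sided permutation p of 0.0556, the smallest that 36 assignments allow. Within odd or even replicates alone no p below 0.333 is possible. The number of peaks also differs between lists, from 149172 to 250548 on chromosomes 1 to 22, and read depth is unknown. A part of list length in the desert share was not tested.

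The number of desert regions called per list is given as a description, without a test, because the calls also chose the regions. It was 2330, 3218, 3500 and 3856 with DMSO and 3364, 3858, 3973 and 3591 with 3MB-PP1 (means 3226 ± 652 and 3696.5 ± 273, SD, n = 4 each). The groups overlapped. The difference of 470.5 was 753.5 in odd and 187.5 in even replicates, and it was 172 without DMSO replicate 1, the shortest list, and −90 with a −log10 q minimum of 2. Set against the percent of intergenic comparison regions called in the same list, the percent of desert regions was −14.2, −3.79, −7.72 and 2.21 points away with DMSO and −2.26, 5.83, 2.10 and 7.30 points away with 3MB-PP1. The values were below 0 in 3 of 4 DMSO lists and above 0 in 3 of 4 3MB-PP1 lists, and the groups overlapped. The difference in this measure, which was added after the values were seen, was 9.12 points. It was 10.9 points in odd and 7.36 points in even replicates.

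**Figure D4:**
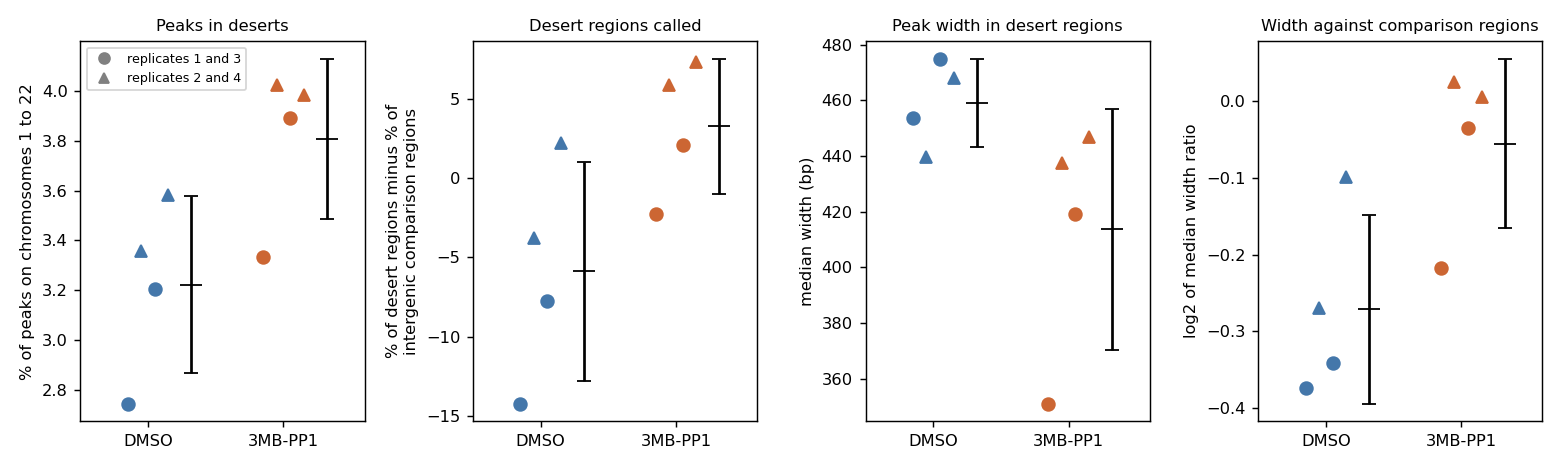
Each point is 1 list, by treatment and by odd or even replicate number, with the mean ± SD of 4 lists at the right. The panels give the percent of peaks in deserts, the percent of desert regions called minus that of intergenic comparison regions, the median peak width in desert regions (bp), and the log2 ratio of that width to the width in comparison regions within 500 kb of a gene. Axes do not start at 0. The treatments overlap in every panel over all 8 lists.

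Peaks were narrower with 3MB-PP1 than with DMSO by less in desert regions than nearer to genes, although neither the difference in deserts nor its contrast with other regions passed the test. The median peak width in desert regions was 453.5, 439.5, 475 and 468 bp with DMSO and 351, 437.5, 419 and 447 bp with 3MB-PP1. The 3MB-PP1 value was the lower in 4 of 4 same-numbered pairs, but replicate 4 of 3MB-PP1 lay above replicate 2 of DMSO. The difference of −45.4 bp reached p = 0.0571 by exact two-sided permutation (adjusted p = 0.2), and was −79.25 bp in odd and −11.5 bp in even replicates. Without 3MB-PP1 replicate 4 it was −56.5 bp, and with a −log10 q minimum of 2 it was −139.5 bp (each p = 0.0286 by exact permutation). Each median is over the regions that the list called, so the lists are not compared on the same regions. Over desert regions in all 8 lists the difference was −105.6 bp (exact permutation p = 0.114). With the regions each list called, it was −152.75 bp in gene bodies, −116 bp within 50 kb and −35.4 bp beyond 1 Mb. It was smaller with each step of distance. The log2 ratio of the width in desert regions to that in all comparison regions within 500 kb tests this directly. It was −0.37, −0.27, −0.34 and −0.10 with DMSO and −0.22, 0.02, −0.03 and 0.01 with 3MB-PP1.

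Desert peaks were narrower than comparison peaks in 4 of 4 DMSO lists and in 2 of 4 3MB-PP1 lists, and the lists numbered DMSO 4 and 3MB-PP1 1 crossed the gap between the groups. The difference of 0.22 (log2) reached p = 0.0571 by exact two-sided permutation (adjusted p = 0.2). It was 0.23 in odd and 0.20 in even replicates without overlap in either, for a p of 0.0556 when permuted within them. Among regions in all 8 lists, the mean width was the smaller with 3MB-PP1 in 511 of 814 desert regions (62.8%) and in 78.6% of 14141 intergenic comparison regions. With a stricter −log10 q minimum of 2, the difference in log2 ratio was 0.03 (exact permutation p = 0.686). Over regions in all 8 lists it was 0.207 (exact permutation p = 0.143).

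Rank and covered length were compared in the same way. The median percentile in desert regions was 57.9, 60.4, 60.7 and 63.9 with DMSO and 64.1, 61.5, 66.1 and 62.9 with 3MB-PP1. The difference of 2.92 percentile points (p = 0.114 by exact two-sided permutation, adjusted p = 0.2) was 5.81 points in the odd and 0.0220 in the even replicates, and −1.29 points with a −log10 q minimum of 2. This median, too, is over the regions each list called. Over desert regions in all 8 lists the difference was 3.58 points (exact permutation p = 0.429). Covered length in desert regions differed by 40.6 kb between means of 1897 and 1938 kb, and by −136 kb without DMSO replicate 1. It is given without a test, since it follows the number of regions called. Within lists, desert regions ranked above intergenic comparison regions in 8 of 8 lists, by 2.42 percentile points on average (0.237 to 4.43, exact two-sided sign-flip permutation p = 0.0078125, adjusted p = 0.0156 over 2 measures). Peak width differed by −10.4 bp between the same regions, lower in deserts in 4 of 8 lists (exact sign-flip permutation p = 0.531). The lists share their regions and cell line. The rank difference was 1.195 points without the regions near centromeres (exact permutation p = 0.102), and it turned to −3.10 points with a −log10 q minimum of 2.

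Region by region, the calls leaned toward 3MB-PP1 at the deposited threshold. Of 4837 desert regions, 2034 (42.1%) were in more 3MB-PP1 than DMSO lists, where the background over all regions in at least 4 lists was 28.2%, and 1011 (20.9%) were in more DMSO lists, where the background was 26.3%. For intergenic comparison regions the shares were 29.4% and 28.5%. The share in more 3MB-PP1 lists was 27.7% within 50 kb of a gene, 31.1% between 100 and 250 kb and 43.3% beyond 1 Mb. Near centromeres it was 31.4% of the 398 desert regions. A call is all or nothing, and a region without a call may hold signal below the threshold.

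With a −log10 q minimum of 2 the lean was the other way. Of the 840 regions that then met the rule, 158 (18.8%) were in more 3MB-PP1 lists and 354 (42.1%) in more DMSO lists. The backgrounds at that threshold were 8.74% and 34.8%, so both shares of desert regions stood above the background, and those of intergenic comparison regions were 12.5% and 43.5%. The excess over the background in more 3MB-PP1 lists was therefore present at both thresholds, while the lean among desert regions themselves was not.

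**Figure D5:**
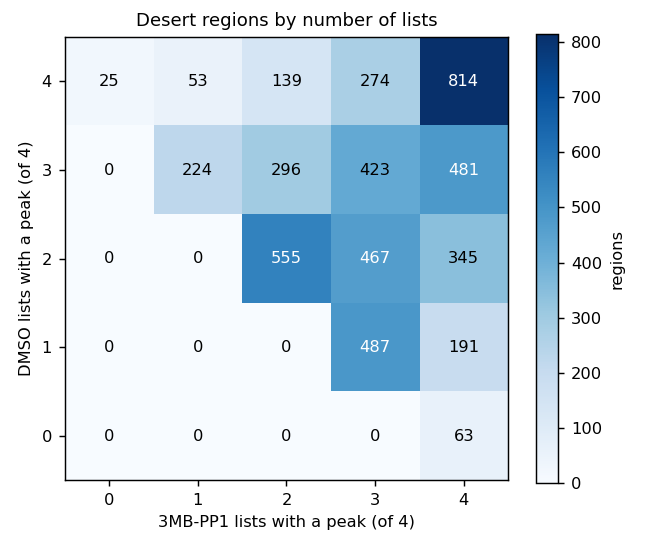
Number of desert regions by how many of 4 DMSO lists (vertical) and 4 3MB-PP1 lists (horizontal) held a peak, at the deposited threshold. Cells with fewer than 4 lists in all are 0 by the rule. The 814 regions in all 8 lists form the largest cell, and 63 regions lie at 4 of 4 against 0 of 4 in favour of 3MB-PP1 and 25 in favour of DMSO.

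Regions called in 1 group only were rare. Of the desert regions, 63 (1.30%) were in 4 of 4 3MB-PP1 and 0 of 4 DMSO lists, where the background was 0.62%, and 25 (0.517%) were the reverse, where the background was 0.5%. The second share was near its background. With up to 1 call allowed in the other group, the counts were 254 (5.25%, background 2.71%) and 78 (1.61%, background 2.14%). With a −log10 q minimum of 2 they were 4 (0.476%, background 0.115%) and 18 (2.14%, background 1.13%), so that regions in DMSO lists alone became the more numerous. Without DMSO replicate 3 or 4, the 3MB-PP1-only count was 102 or 182, and without 3MB-PP1 replicate 1, 2 or 3 the DMSO-only count was 39, 41 or 42. Because the rule asks for 4 lists, leaving out a list can only keep or raise these counts. They therefore cannot show how stable the counts are, and their background shares were not computed. With 4 lists in each group, no single region could pass a correction over all regions.

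The 3MB-PP1-only regions of highest rank away from centromeres were modest peaks. One, chr4:12793069-12793867 between HS3ST1 and RAB28, had percentiles of 82.5, 64.5, 65.3 and 83.7, and chr6:115131603-115132378 between HS3ST5 and FRK had 30.8, 87.8, 90.9 and 75.8. HS3ST1 and HS3ST5 encode heparan sulfate sulfotransferases. One at the pseudogene DUX4L35 on chromosome 20 ranked above them at 94.4 ± 1.40 (SD, n = 4), beside a centromere. In the DMSO lists only, chr4:160536981-160538070 at LINC02477 had percentiles of 83.7, 85.7, 89.2 and 60.8, chr6:164401830-164402600 had 80.0, 64.0, 85.1 and 83.2, and chr2:41233786-41234295 between SLC8A1, a sodium-calcium exchanger, and PKDCC had 82.1, 72.8, 89.5 and 55.2. The percentiles of 1 region spread widely over the lists of its group.

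Deserts leaned to different sides at the deposited threshold. Of 83 deserts with at least 20 desert regions, 62 had more regions in more 3MB-PP1 lists, 20 had more in more DMSO lists and 1 was equal. Over all desert regions the shares were 42.1% and 20.9%, so the count of deserts is not a separate result. No such count was made for stretches nearer to genes. The deserts named here were chosen for this after their values were seen. PCDH7 to ARAP2 on chromosome 4, beside a protocadherin gene, had 32 regions in more 3MB-PP1 lists and 1 in more DMSO lists. Its regions were called 12, 24, 19 and 36 times with DMSO and 28, 42, 40 and 38 times with 3MB-PP1, and these overlap. PABPC4L to PCDH18 had 33 against 5, with 17, 31, 40 and 38 calls against 42, 48, 47 and 43, which do not overlap. How many of the 83 deserts had calls without overlap was not counted. GALR1 to SALL3 on chromosome 18 had 35 against 6, with 20, 40, 33 and 53 calls against 37, 57, 54 and 53, which overlap.

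Leaning the other way, AGA to TENM3 had 31 regions in more 3MB-PP1 and 50 in more DMSO lists. Its calls were 78, 103, 130 and 109 with DMSO and 86, 103, 112 and 83 with 3MB-PP1. MAT2B to TENM2 on chromosome 5, beside another teneurin gene, had 13 against 25, with 25, 38, 47 and 46 calls against 23, 31, 36 and 34. Both sets of calls overlap between the treatments. On chromosome 2, SLC4A3 to EPHA4 had 6 against 17 and TRIB2 to LRATD1 had 5 against 16. The calls of TRIB2 to LRATD1 were 20, 26, 27 and 21 with DMSO and 17, 19, 19 and 18 with 3MB-PP1. These do not overlap, while those of SLC4A3 to EPHA4 do. The leading transcription factor genes named above also differed. Regions nearest to SALL3 stood at 19 in more 3MB-PP1 against 2 in more DMSO lists. The counts were 12 against 9 for ID2, 8 against 5 for LMO3, 5 against 9 for TBX3 and 5 against 2 for NR2F2. Over all desert regions the shares were 42.1% and 20.9%. SALL3 flanks the GALR1 to SALL3 desert given above, so its regions are not a separate observation.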

How the data were processed

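ATAC-seq peak lists of 8 libraries were used, 4 with DMSO and 4 with 3MB-PP1, grouped by the titles in the labels. The submitters' processing notes name MACS2, DESeq2 and hg38, with no version. The aligner, read filters, any shift for Tn5 and any control for calling are not given in the sources used here, and these steps can set how many peaks a list holds and how wide they are. The lists carry 1 library each, so the authors did not pool replicates for them. Each deposited line holds a peak's position, length, pileup (a signal, or coverage, with no stated scaling between libraries), −log10 p, fold enrichment (a ratio to background within the library) and −log10 q. These values are the authors' and were used only to rank or filter peaks within a list. The largest q in any list was 0.1. Read depth is unknown, so no interval that needs it is given.

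Peaks on chromosomes 1 to 22 were merged where they shared at least 1 bp. Distances were taken to 19126 protein-coding genes of the RefSeq table for GRCh38.p14. Some of these are on unplaced or alternate sequences listed under a chromosome, and the 18973 on the chromosomes themselves give 4845 desert regions. Strands, promoters and microRNA sequences came from RefSeq tables of the same assembly, and a genome sequence was not used here, so motifs and base composition of the regions themselves were not computed. Centromere positions were rounded from general knowledge of the assembly.

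Treatment means were tested by permuting the 70 assignments exactly (two-sided), with Benjamini-Hochberg adjustment for 7 measures (of which regions called and covered length, which rest on the calls that chose the regions, are given without a test), and desert against other regions by sign flips over 8 lists. In each list a region took its widest peak for width and its best-ranked peak (by −log10 p, ties by fold) for percentile. The labels describe biological replicates without naming separate cultures, so p-values measure the spread between these libraries. Intervals and tests were checked on simulated data and against bedtools. Regions were named by rank in all 8 lists, rank among those of 1 group only, distance, width and overlap with non-coding genes, and deserts by number and density of regions. The members and gene lists were chosen with earlier results of these data known. Scripts ran in Python 3.11.15 with scipy 1.17.1, pandas 2.3.3 and numpy 2.4.6, and figures were drawn with matplotlib 3.10.9.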

Additional observations from a re-analysis of the deposited data

How the results depend on the processing

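Of 155 alternatives to the measures compared, 139 kept the direction and 16 did not. The count includes the block by replicate number, which leaves each difference unchanged and so could not reverse it. It also includes regions called and covered length, which are given without a test. The share of peaks in deserts and the log2 width ratio kept theirs in every alternative run, with exact permutation p from 0.0571 to 0.333 and from 0.0571 to 0.686. With a −log10 q minimum of 2 (840 desert regions), the treatment difference was −90 regions called per list, −167.5 kb of covered length, −139.5 bp of median width (exact permutation p = 0.0286), −1.29 points of percentile and −0.285 points of the percentile gap to comparison regions. There, desert minus intergenic comparison regions within lists was −138 bp (exact permutation p = 0.0078125) and −3.10 percentile points (exact permutation p = 0.0156), and 4 regions were in 3MB-PP1 lists only. For covered length, which had no clear direction, the other reversals were −257 kb beyond 250 kb, −90.3 kb for regions in all 8 lists, −0.643 kb where peaks covered at least 50% of a region, −10.4 kb in even replicates and, leaving out single lists, a range of −136 to 168 kb (below 0 without DMSO replicate 1 or 3MB-PP1 replicates 2 or 3). The percentile gap was −0.744 beyond 1 Mb and −0.814 in even replicates. The median width difference was −65 bp beyond 250 kb (exact permutation p = 0.0286) and −56.5 to −24.5 bp without single lists, passing only without 3MB-PP1 replicate 4. Against all comparison regions the within-list differences were −55.3 bp (exact permutation p = 0.03125) and −1.52 points, against intergenic regions at 100 to 500 kb the width difference was 1.31 bp, and without centromeric regions the rank difference was 1.195 points. Regions of 3MB-PP1 lists only numbered 63 to 182 without single lists (102 without DMSO replicate 3, 182 without DMSO replicate 4) and those of DMSO lists only 25 to 42 (39, 41 and 42 without 3MB-PP1 replicates 1, 2 and 3). The lower ends of these ranges are set by the rule, which lets neither count fall. With 1 call allowed in the other group the regions numbered 254 and 78. The causes were not tested. Alternatives added after seeing the data were those without immunoglobulin loci, with gene rows on the chromosomes only and with 1 call allowed, the permutation within odd and even numbers, the gap in regions called and the lengths without peak-free stretches.

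With the replicate number as a block, the exact permutation p was 0.125 for the share of peaks in deserts, for median width and for the width ratio, the smallest that 4 pairs allow. The calls of each list were taken as deviations from the mean of its group, over all regions in at least 4 lists. Between same-numbered lists these deviations correlated at 0.0928, 0.0290, 0.0252 and 0.0892. Between lists of different number they correlated at −0.0951 to 0.0415. By this measure 3 of 4 DMSO lists correlated best with their own number, while DMSO replicate 3 correlated best with 3MB-PP1 replicate 1 (0.0415). These values do not exclude a pairing by number, which was not tested further. The main tests left the libraries unpaired, and the p with the number as a block is the paired result. Requiring 3 of 4 lists of a group and 0 of the other gave no value of its own, since the rule asks for 4 lists, and requiring all 8 lists gave none for regions called per list.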
